A study of Mus musculus with 6 samples.

Results

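The D-type cyclins, the kinases they activate and the inhibitors that hold those kinases back were followed as 10 genes of the 54446 genes listed in the files. They were chosen by symbol, with no threshold on any value, and each symbol matched 1 gene. The cyclins are Ccnd1, Ccnd2 and Ccnd3, and the kinases are Cdk4 and Cdk6. The inhibitors of the INK4 type are Cdkn2a, Cdkn2b and Cdkn2c, and those of the CIP/KIP type are Cdkn1b and Cdkn1c. All 10 passed the filter on low counts in the comparison of the groups.

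Cells leave G1 when a D cyclin, made in response to growth factors, pairs with CDK4 or CDK6 and the pair phosphorylates the retinoblastoma protein, which releases E2F transcription factors. INK4 proteins bind CDK4 and CDK6 and block the pairing, while CIP/KIP proteins bind cyclin and kinase together and chiefly inhibit CDK2. In glioma this pathway is a common target of genetic change, among which loss of CDKN2A and gain of CDK4 or CDK6 are well known.

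Mouse glioma cultures were profiled in 6 droplet-based single-cell libraries that read the 5' end of transcripts. GL261, an established mouse glioma line, gave 2 libraries of cells kept in differentiation medium with fetal calf serum. GL261-GSCs, cultures whose label is glioblastoma stem cell, gave 4 libraries and were kept in defined GSC medium. Cell state and medium therefore cannot be told apart in any comparison of the groups. The protocol names cells and neurospheres, dissociated with Accutase and treated with a detergent lysis buffer, and the labels do not say if intact cells or nuclei entered the droplets. Nothing in the labels says that replicates came from separate cultures, so p-values measure only the spread between these libraries, which may be technical.

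Called cells numbered 4264 to 7275 per library, with 33320530 to 79472306 UMIs in all (a UMI counts 1 captured RNA molecule). The median cell held 15477.5 and 13651.5 UMIs in GL261 replicates 1 and 2, and 6670 to 15374.5 in GL261-GSCs, the lowest in replicate 4. Endothelial markers summed to under 1.6 counts per 1000000 UMIs (CPM) in every library. Microglial markers summed to 11.8 and 12.4 CPM in GL261 and to at most 0.351 CPM in GL261-GSCs, with C1qa at 0 in every library. In each GL261 library only 1 of these 6 genes reached 5 CPM. Csf1r, the only gene of the set that could be tested, was lower in GL261-GSCs (log2 change -5.79, edgeR adjusted p = 3.19e-05). Oligodendrocyte lineage markers summed to 480 and 517 CPM in GL261 against 1300 to 2394 CPM in GL261-GSCs. Of these 5 genes edgeR called 3 higher and 2 were not called, and without GL261-GSCs replicates 3 and 4 it called 1 lower. Olig1 and Olig2 averaged 0.66 and 0.47 CPM in GL261. Myelin markers summed to 163 and 246 CPM in GL261 against 164 to 258 CPM in GL261-GSCs, with 2 of 4 called higher and 1 lower. Neuronal markers summed to 0.0141 and 0.0456 CPM in GL261 and to 1.18 to 85.8 CPM in GL261-GSCs, where Syt1 rose (edgeR adjusted p = 0.0194) and Rbfox3 was at 0 in every library. The 4 stem cell markers summed to 1187 and 1223 CPM in GL261 against 624, 807, 561 and 562 CPM in GL261-GSCs replicates 1 to 4. Their sum was thus lower in each GL261-GSCs library. Of the 3 stem cell markers tested, Sox2 and Fabp7 rose by 0.87 and 9.87 on the log2 scale and Nes fell by 1.52 (edgeR adjusted p = 0.0334, 2.99e-05 and 0.00523). Fibroblast markers summed to 235 and 258 CPM in GL261 against 11.3 to 26.9 CPM in GL261-GSCs. In each library only 1 of these 4 genes reached 5 CPM. In GL261 replicate 2 that gene was Col1a1, with Col1a2, Dcn and Lum at 0. Of the 2 fibroblast markers tested, 1 was called lower and 1 was not called. Astrocyte markers summed to 8.08 and 7.21 CPM in GL261 against 61.6 to 91.9 CPM in GL261-GSCs. Gfap and Aldh1l1 were lower and Slc1a3 higher in GL261-GSCs (edgeR adjusted p = 0.00155, 9.66e-05 and 0.000253). The part of these markers in the results below was not tested. GL261-GSCs replicates 3 and 4 stood apart from replicates 1 and 2, so results were also computed without either pair.

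Promoter sequence bears on 3 of the genes described below, and is taken from the RefSeq promoter table (build GRCm38.p6), which held entries for 7 of the 10 genes. The 250 bases before each annotated start were searched on both strands for 7 motifs, and motifs were allowed to overlap one another. They were CACGTG (the E-box bound by MYC), TTTCGCG or TTTGGCG (letters bound by E2F), TTTGAA (CHR), TGACGTCA (CRE), GGGCGG (the GC box), TGANTCA (AP-1) and CCAAT, the last added after the levels were seen. The 3 stretches are shown because Cdk4 carried an unusual run of E-boxes, and because Cdkn1b and Cdkn2c were the inhibitors called higher in cells that scored high for G2/M genes. They were picked after their levels were seen. Each is written 5′ to 3′ on the gene's own strand, with the motif in capitals.
Cdk4, chr10:127063285-127063533 (plus strand), CACGTG in capitals: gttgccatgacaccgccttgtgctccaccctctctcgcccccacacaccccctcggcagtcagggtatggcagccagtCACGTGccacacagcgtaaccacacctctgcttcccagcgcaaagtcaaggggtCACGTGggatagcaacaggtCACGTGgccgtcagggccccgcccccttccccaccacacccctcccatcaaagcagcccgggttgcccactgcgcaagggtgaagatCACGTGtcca
Cdkn1b, chr6:134920151-134920400 (plus strand), CCAAT in capitals: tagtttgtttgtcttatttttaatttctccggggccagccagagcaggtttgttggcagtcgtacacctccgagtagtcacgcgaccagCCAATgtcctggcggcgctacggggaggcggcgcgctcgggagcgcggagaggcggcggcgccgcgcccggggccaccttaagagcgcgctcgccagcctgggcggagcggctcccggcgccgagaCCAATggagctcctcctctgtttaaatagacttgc
Cdkn2c, chr4:109665554-109665583 (minus strand), TTTCGCG in capitals: aatactttttcTTTCGCGgtgttgtctgag

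The Cdk4 window held 4 E-boxes, which began 172, 118, 98 and 11 bases before the start. Of the 32851 windows in the table, 6.02% held at least 1 E-box and 7 windows (0.0213%) held 4 or more. Cdkn1b held CCAAT 161 and 35 bases before its start, against 33.8% of windows with at least 1 and 10.1% with 2 or more. Of the other members, Ccnd3 held CCAAT 108 bases before the downstream of its 2 annotated starts. Cdk6 held an E-box 220 bases before the start in the promoter table. These windows of Ccnd3 and Cdk6 lie inside the gene as annotated in GENCODE M21 and overlap an exon of it. In Cdkn2c the E2F letters began 200 bases before the downstream of its 2 annotated starts, and 1.93% of all windows held such letters. Both Cdkn2c windows also lie inside the annotated gene and overlap an exon of it. The windows of Cdk4 and Cdkn2b, and a window of Cdkn2a, overlap an exon of their gene as well. The other motifs were held by 16.0% (CHR), 1.55% (CRE), 32.7% (GC box) and 6.75% (AP-1) of windows. Among the members, CHR and CRE letters were each found once, in Cdkn2b, 161 and 46 bases before its start. GC boxes were found in 5 of the 7 genes with entries (Cdkn2a, Cdkn2c, Cdkn1b, Cdk4 and Ccnd3), in Cdkn1b and Cdk4 61 and 80 bases before the start, and no AP-1 letters were found in any. A match describes letters, not a site in use.

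The 3 D cyclins did not move together between the groups. Ccnd3 was higher and Ccnd2 lower in GL261-GSCs, while Ccnd1, the most abundant of the 10, was higher in every GL261-GSCs library without passing the test. Levels are CPM on TMM-scaled library sizes, and because a UMI tags 1 end of a molecule they are not divided by length.

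Ccnd3 (ENSMUSG00000034165.16, chr17:47505051-47599691, plus strand) encodes the D cyclin most abundant in lymphoid tissue and muscle. Its level was 141 and 142 CPM in GL261 replicates 1 and 2. In GL261-GSCs replicates 1 to 4 it was 305, 317, 221 and 258 CPM. Each GL261-GSCs library was above each GL261 library, with the higher levels in replicates 1 and 2. The means were 142 ± 0.565 (SD, n = 2) and 275 ± 44.1 CPM (SD, n = 4). The log2 fold change was 0.96 with an SE of 0.18 (adjusted p = 0.00888 in edgeR's quasi-likelihood test with Benjamini-Hochberg adjustment). At an adjusted p under 0.05, 29.9% of the 18439 genes tested were called, 15.8% as higher in GL261-GSCs and 14.1% as lower. Those are 2920 and 2594 genes, and with library size scaling in place of TMM 3491 were higher and 2034 lower. The call was lost when GL261 replicate 1 or 2 was left out (adjusted p 0.0905 and 0.0946 in edgeR), with log2 changes of 0.95 and 0.96. Ccnd3 shares 361 bases with Bysl on the opposite strand, and the strand setting of the counting is not stated in the labels or headers. Opposite-strand overlaps were also present for Ccnd1 (1771 bases with LTO1) and Ccnd2 (2805 bases with 9330179D12Rik and 994 with Gm43126). Cdk6 shares 8013 bases with Gm17590 and 1448 with Gm42435 in this way, and Cdkn1c 892 with Gm44732.

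Ccnd2 (ENSMUSG00000000184.12, chr6:127125162-127152193, minus strand) encodes the D cyclin prominent in neural progenitors. It stood at 210 and 220 CPM in GL261 replicates 1 and 2. In GL261-GSCs replicates 1 to 4 it stood at 146, 107, 66.9 and 75.7 CPM. The groups did not overlap, and the lowest levels were in replicates 3 and 4. From a mean of 215 ± 7.40 CPM (SD, n = 2) to one of 98.97 ± 35.9 CPM (SD, n = 4), the log2 change was -1.12 (SE 0.30, edgeR adjusted p = 0.0324). With all 6 libraries and all cells, the other scalings, tests and cell filters gave adjusted p-values of 0.00388 to 0.0430. The change was -1.57 without GL261-GSCs replicates 1 and 2 (edgeR adjusted p 4.25e-05) and -0.76 without replicates 3 and 4 (edgeR adjusted p 0.0212). Leaving out GL261 replicate 1 or 2, or GL261-GSCs replicate 2, 3 or 4, ended the call (edgeR adjusted p 0.139, 0.170, 0.0617, 0.0559 and 0.0587), at log2 changes of -0.97 to -1.16.

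Ccnd1 (ENSMUSG00000070348.5, chr7:144929931-144939925, minus strand) encodes the D cyclin most directly tied to growth factor signalling. GL261 replicates 1 and 2 were at 1098 and 1180 CPM, and GL261-GSCs replicates 1 to 4 at 2378, 1799, 1417 and 1410 CPM. Every GL261-GSCs library exceeded both GL261 libraries, but the 4 spread widely. The means were 1139 ± 58.5 (SD, n = 2) and 1751 ± 456 CPM (SD, n = 4), and the log2 difference of 0.62 (SE 0.25) had an edgeR adjusted p of 0.102. It passed with library size scaling (0.76, edgeR adjusted p 0.0426) and without GL261-GSCs replicates 3 and 4 (0.88, edgeR adjusted p 0.0117). Without GL261-GSCs replicates 1 and 2 it was 0.33 and did not pass (edgeR adjusted p 0.0965). Over all genes tested, library size scaling moved the median log2 change from 0.04 to 0.18.

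**Figure D1:**
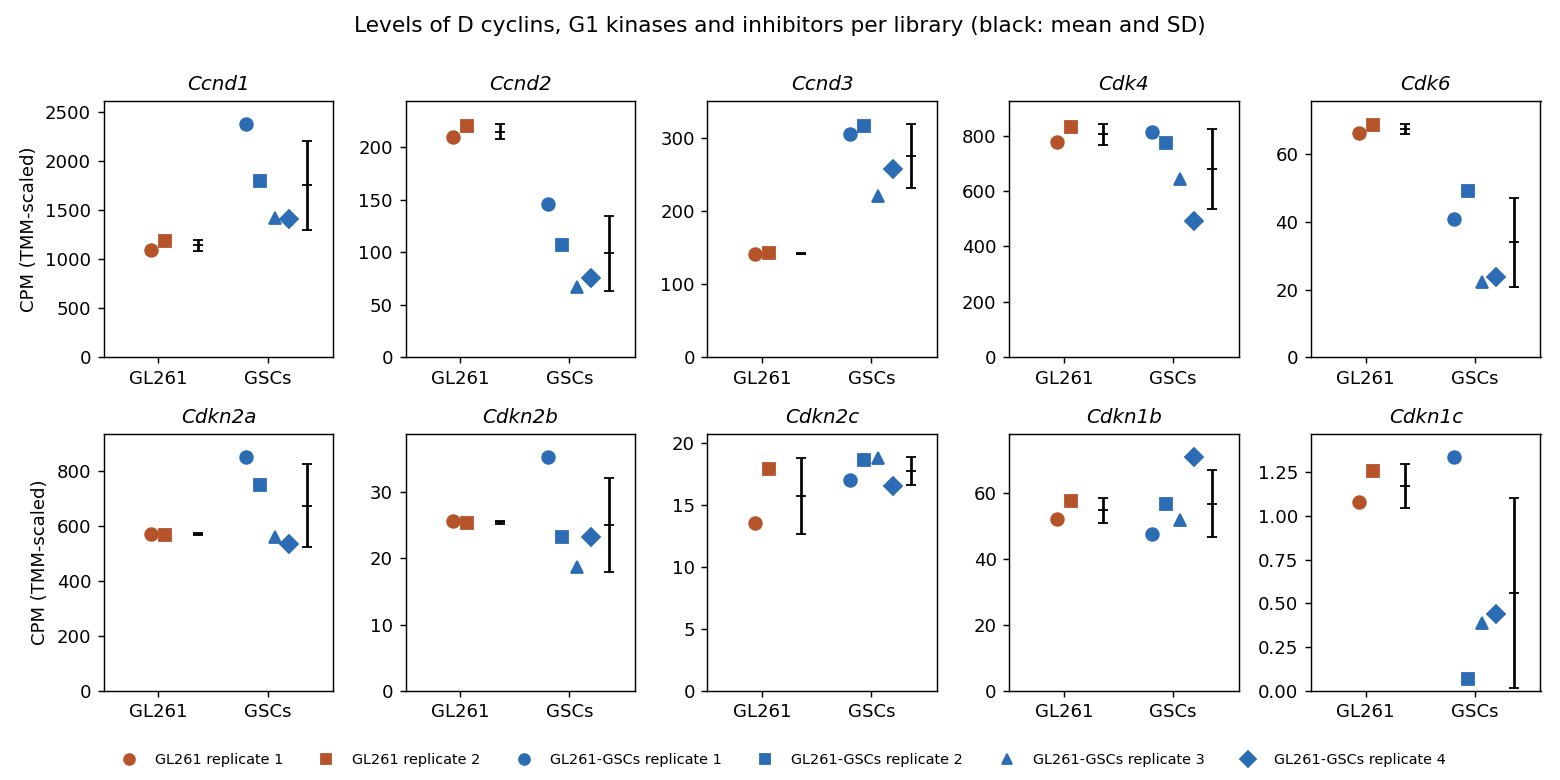
Levels of the 10 genes in CPM on TMM-scaled library sizes (y axes from 0) in GL261 (orange) and GL261-GSCs (blue), 1 point per library, with the mean and SD in black. Ccnd1 and Ccnd3 are higher and Ccnd2 and Cdk6 lower in all 4 GL261-GSCs libraries than in either GL261 library, while the other 6 genes overlap.

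The makeup of D cyclin UMIs shifted from Ccnd2 to Ccnd3 and Ccnd1. Summed over the 3 genes, levels were 1449 and 1543 CPM in GL261 against 2829, 2223, 1705 and 1744 CPM in GL261-GSCs replicates 1 to 4, so the total was higher in each GL261-GSCs library. Ccnd2 made up 14.5% and 14.3% of D cyclin UMIs in GL261 against 5.17%, 4.81%, 3.92% and 4.34% in GL261-GSCs. Ccnd3 made up 9.75% and 9.21% in GL261 against 10.8%, 14.3%, 12.98% and 14.8% in GL261-GSCs. The order of these lesser D cyclins was thus reversed between the groups in every library. The ratio of Ccnd3 to Ccnd2 UMIs was 0.673 and 0.645 in GL261 against 2.09, 2.96, 3.31 and 3.41 in GL261-GSCs. Ccnd1 supplied most of the UMIs everywhere, at 76.1% ± 0.527 (SD, n = 2) in GL261 and 82.2% ± 1.59 (SD, n = 4) in GL261-GSCs.

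The same shift was seen in shares of cells with a UMI, after each cell was thinned to 2000 UMIs so that depth was equal (no cell was shallower). In GL261 replicates 1 and 2, Ccnd1 was seen in 76.4% and 79.3% of cells, Ccnd2 in 31.3% and 33.0%, and Ccnd3 in 22.3% and 21.6%. Mean shares in GL261-GSCs were 91.5% ± 3.53 for Ccnd1, 17.7% ± 4.92 for Ccnd2 and 39.3% ± 4.91 for Ccnd3 (SD, n = 4). The shares did not overlap between groups for these 3 genes or for Cdk6, 4 of the 10, as for 49.0% of all genes tested. Each of the 4 had an exact 2-sided permutation p of 0.133, the smallest that the 15 arrangements of 2 and 4 libraries allow, and an adjusted p of 0.333 over the 10 genes. Without thinning, the mean shares were 97.2% and 98.8% for Ccnd1, 83.8% and 56.8% for Ccnd2 and 74.6% and 81.9% for Ccnd3 in GL261 and GL261-GSCs. The share that free RNA alone would give at 2000 UMIs, estimated from near-empty droplets, was 8.14% to 30.3% for Ccnd1, 0.649% to 1.47% for Ccnd2 and 1.24% to 6.70% for Ccnd3. Each was well under the measured share in its library, and no cell type lacking these genes was present to measure background directly.

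Most cells showed Ccnd1 alone or with another D cyclin. At 2000 UMIs, 13.3% and 11.04% of GL261 cells had no UMI of any D cyclin, against 1.95%, 4.003%, 7.62% and 6.07% in GL261-GSCs replicates 1 to 4. Cells with at least 2 of the cyclins made up 37.7% and 39.4% in GL261 against 55.1%, 51.8%, 37.7% and 42.5% in GL261-GSCs. Ccnd2 and Ccnd3 were seen together in 7.28% of cells of GL261 replicate 1, where the product of their shares is 6.98%. In GL261-GSCs replicate 1 that pair was seen in 9.55% of cells, with a product of 10.1%. In these libraries the lesser cyclins were thus seen together about as often as their separate shares would give.

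**Figure D2:**
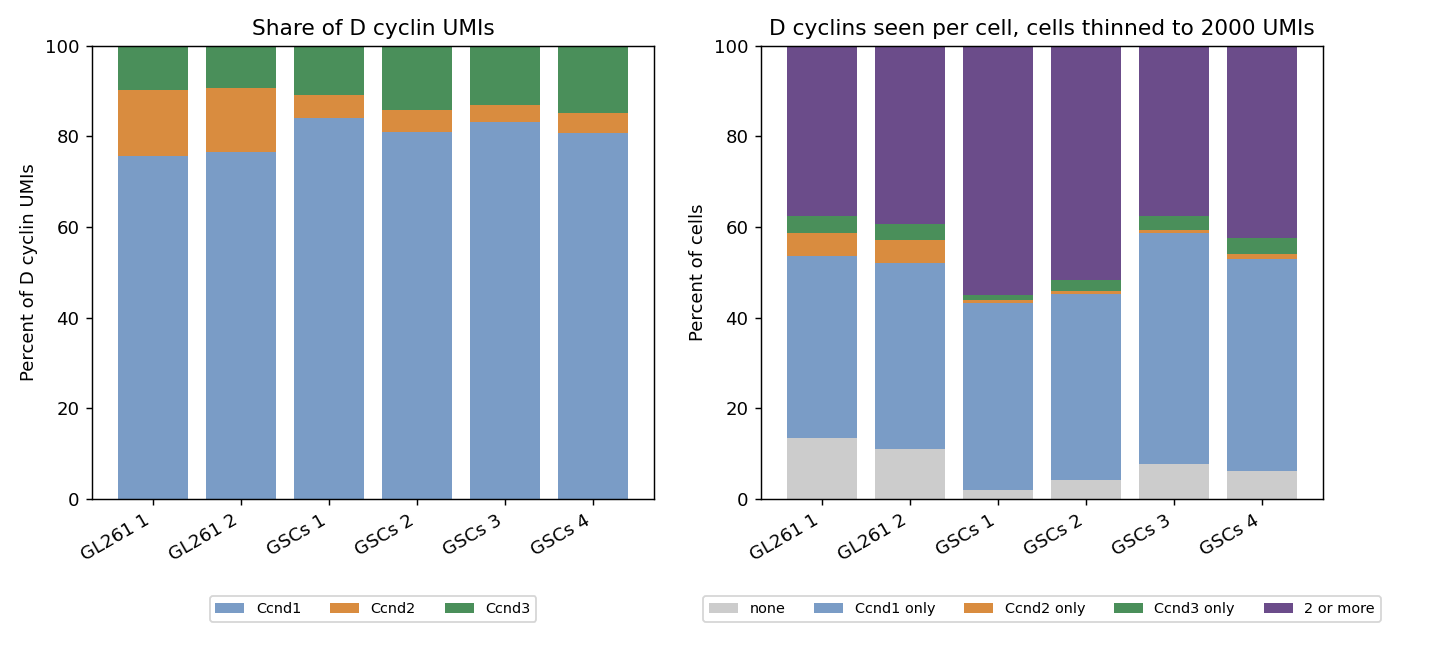
Left, percent of D cyclin UMIs that came from Ccnd1, Ccnd2 and Ccnd3 in each library; right, percent of cells, thinned to 2000 UMIs, with no D cyclin, 1 or at least 2. The Ccnd2 band shrinks from 14.5% and 14.3% in GL261 to between 3.92% and 5.17% in GL261-GSCs.

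Of the kinases, Cdk6 was lower in every GL261-GSCs library and Cdk4 overlapped between the groups; neither passed the test. Cdk6 (ENSMUSG00000040274.11, chr5:3341485-3531008, plus strand) encodes the D cyclin kinase prominent in blood cells and progenitors. Its level was 66.3 and 68.5 CPM in GL261 against 40.8, 49.1, 22.3 and 23.7 CPM in GL261-GSCs replicates 1 to 4. The means were 67.4 ± 1.52 (SD, n = 2) and 34.0 ± 13.1 CPM (SD, n = 4), with a log2 difference of -0.99 (SE 0.33, edgeR adjusted p = 0.0625). It was called by DESeq2 (-0.99, adjusted p 0.0203), and in edgeR without the filter on low counts (adjusted p 0.0307), without GL261-GSCs replicate 2 (-1.20, 0.0298), without replicates 1 and 2 (-1.53, 2.37e-05) and without replicates 3 and 4 (-0.58, 0.0191).

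Cdk4 (ENSMUSG00000006728.12, chr10:127063534-127067920, plus strand), whose promoter with 4 E-boxes is printed above, was the more abundant kinase in every library. It stood at 778 and 831 CPM in GL261 against 812, 775, 642 and 493 CPM in GL261-GSCs replicates 1 to 4. Replicates 1 and 2 lay at or near the GL261 levels and replicates 3 and 4 below them. The log2 difference was -0.24 (SE 0.22, edgeR adjusted p = 0.429), and without replicates 1 and 2 it was -0.48 (edgeR adjusted p 0.0445). Cdk4 UMIs were 11.7 and 12.1 times those of Cdk6 in GL261, and 19.9, 15.8, 28.8 and 20.8 times in GL261-GSCs, so that the ratio was higher in each GL261-GSCs library. Cdk4 shares 641 bases with Tspan31 on the opposite strand.

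Among the INK4 genes none passed edgeR, DESeq2 or limma-voom between the groups or had an unadjusted edgeR p under 0.05, and 1 gene dominated. Cdkn2a (ENSMUSG00000044303.6, chr4:89274471-89294653, minus strand) encodes p16INK4a and, from another first exon, p19ARF, which stabilises p53; the deposited counts do not separate these transcripts. Its level was 571 and 566 CPM in GL261 against 848, 747, 559 and 533 CPM in GL261-GSCs replicates 1 to 4. GL261-GSCs replicates 1 and 2 lay above GL261 and replicates 3 and 4 slightly below it. The log2 difference was 0.24 (SE 0.22, edgeR adjusted p = 0.440). It was 0.50 without replicates 3 and 4 (edgeR adjusted p 0.0181) and -0.04 without replicates 1 and 2 (0.838). At 2000 UMIs, Cdkn2a was seen in 63.1% and 60.7% of GL261 cells and in 76.8%, 73.8%, 61.8% and 59.4% of GL261-GSCs cells, against at most 13.03% from free RNA. Both groups therefore expressed this gene, which supplied 92.9% to 94.7% of INK4 UMIs in each library.

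Cdkn2b (ENSMUSG00000073802.5, chr4:89306299-89311039, minus strand), the neighbour of Cdkn2a, encodes p15INK4b, an inhibitor known to be induced by TGF-beta. It stood at 25.6 and 25.3 CPM in GL261 against 35.3, 23.2, 18.7 and 23.2 CPM in GL261-GSCs, with GL261 inside the GL261-GSCs range (log2 difference -0.02, SE 0.25, edgeR adjusted p = 0.956). Cdkn2c (ENSMUSG00000028551.14, chr4:109660876-109667189, minus strand) encodes p18INK4c. Its levels of 13.6 and 17.9 CPM in GL261 against 17.0, 18.6, 18.8 and 16.5 CPM in GL261-GSCs also overlapped (log2 difference 0.17, SE 0.17, edgeR adjusted p = 0.468). At 2000 UMIs Cdkn2b was seen in a mean of 4.53% of GL261 and 5.01% of GL261-GSCs cells, and Cdkn2c in 2.997% and 3.401%.

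The genes around Cdkn2a and Cdkn2b were read out as well, because deletions there often take several genes at once. Within 1000000 bases on either side 69 genes are annotated, and of the 16 that could be tested 2 were higher and 7 lower in GL261-GSCs, beside 15.8% and 14.1% of all genes tested. Mtap, a methionine salvage enzyme gene often lost with CDKN2A in tumours, was at 163 and 180 CPM in GL261 against 127, 136, 95.4 and 80.1 CPM in GL261-GSCs replicates 1 to 4 (log2 difference -0.64, SE 0.23, edgeR adjusted p = 0.0731). Klhl9, which encodes an adaptor of a ubiquitin ligase, was at 44.1 and 48.5 CPM in GL261 against 34.7 to 48.1 CPM in GL261-GSCs (-0.20, SE 0.16, edgeR adjusted p = 0.374). Transcripts of these neighbours were thus present in all 6 libraries. Dmrta1, which encodes a transcription factor, rose from 0.607 and 0.331 CPM in GL261 to 9.67, 7.42, 8.55 and 7.06 CPM in GL261-GSCs (log2 fold change 4.11, SE 0.36, edgeR adjusted p = 0.000450). Focad, the other gene that rose, changed by 0.64 (SE 0.17, edgeR adjusted p = 0.0279). The falls with the smallest p were the non-coding genes AL805899.1 (-2.34, SE 0.31, edgeR adjusted p = 0.00225), Gm12602 (-2.80, SE 0.38, 0.00246) and Wincr1 (-3.89, SE 0.66, 0.00615), each at no more than 2.71 CPM in any library. Hacd4, a fatty acid elongation gene, fell by 1.98 on the log2 scale (SE 0.56, edgeR adjusted p = 0.0374).

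The CIP/KIP genes did not pass the test by edgeR, DESeq2 or limma-voom, and neither had an unadjusted edgeR p under 0.05. Cdkn1b (ENSMUSG00000003031.14, chr6:134920401-134925513, plus strand) encodes p27KIP1, which restrains CDK2 in resting cells. It stood at 52.2 and 57.6 CPM in GL261 against 47.6, 56.8, 51.8 and 70.9 CPM in GL261-GSCs replicates 1 to 4. All but replicate 4 lay close together, and the log2 difference was 0.05 (SE 0.18, edgeR adjusted p = 0.860). In replicate 4, Malat1, an RNA kept in the nucleus, made up 0.813% of UMIs against 0.288% to 0.457% in the other libraries; its part in the Cdkn1b level was not tested.

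Cdkn1c (ENSMUSG00000037664.13, chr7:143458339-143461050, minus strand), the imprinted gene for p57KIP2, was close to undetected. It had 73 and 76 UMIs in GL261 against 88, 5, 31 and 16 in GL261-GSCs replicates 1 to 4, or 1.08 and 1.26 CPM against 1.33, 0.0690, 0.388 and 0.440 CPM. Replicate 1 was thus as high as GL261, and the log2 difference of -1.07 (SE 0.86) had an edgeR adjusted p of 0.386. It was -1.99 without replicate 1 (edgeR adjusted p 0.0603), -0.66 without replicate 2 (0.437) and -1.49 without both (0.00517). Without thinning, 5 of 5870 cells of replicate 2 had a UMI (0.0852%, exact Clopper-Pearson interval 0.0277% to 0.199%, for counting error only).

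Across the 10 genes, 4 had libraries that did not overlap between the groups, where 56.7% of all genes tested did not. Likewise 1 of 10 was called higher and 1 of 10 lower, near the 15.8% and 14.1% of all genes.

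**Figure D3:**
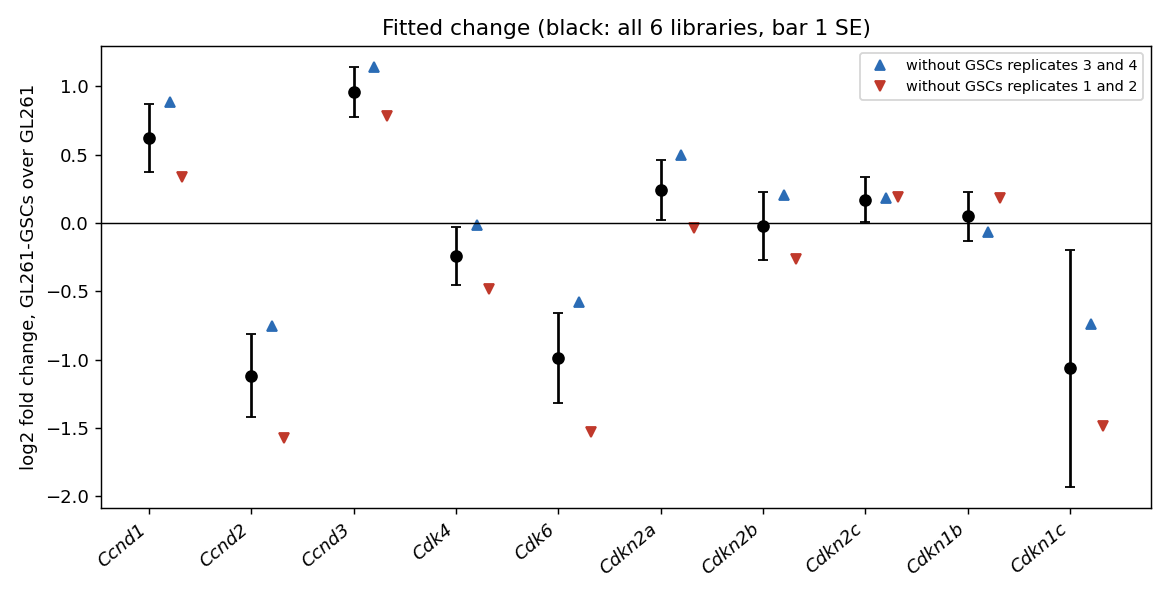
Log2 fold change of GL261-GSCs over GL261 for each gene with all 6 libraries (black, bar 1 SE), without GL261-GSCs replicates 3 and 4 (blue) and without replicates 1 and 2 (red). Ccnd2, Ccnd3 and Cdk6 keep their sign in all 3 fits, whereas Cdkn2a runs from 0.50 to -0.04.

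The GL261-GSCs libraries differed among themselves in most of these genes. In 7 of 10 (Ccnd1, Ccnd2, Ccnd3, Cdk4, Cdk6, Cdkn2a and Cdkn2b) both replicates 1 and 2 were above both replicates 3 and 4, and no gene of the 10 showed the opposite order. Cdkn2b met this narrowly, with 23.199 CPM in replicate 2 against 23.185 CPM in replicate 4, and in cells of at least 5000 UMIs it did not (23.16 against 24.02 CPM). Among genes of at least 10 CPM on average, 39.5% were ordered that way and 28.0% the opposite way. The ratio of the highest to the lowest library was 19.3 for Cdkn1c, which had 5 UMIs in the lowest, then 2.20 for Cdk6, 2.19 for Ccnd2, 1.89 for Cdkn2b and 1.69 for Ccnd1. It was smallest for Cdkn2c, at 1.14, and its median over genes of at least 10 CPM was 1.45. Median UMIs per cell were also higher in replicates 1 and 2 (15374.5 and 11889.5) than in replicates 3 and 4 (10638 and 6670). In cells of at least 5000 UMIs, Ccnd1 was still at 2355 and 1791 CPM in replicates 1 and 2 and 1447 and 1534 CPM in replicates 3 and 4. Cdk6 in those cells was at 39.8 and 47.5 CPM against 21.2 and 21.0 CPM.

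The next comparison asked where in the cell cycle each gene was highest. In each library, the 20% of cells with the largest share of UMIs in a list of G2/M genes were called G2/M-high. Of the remaining cells, those with the largest share in a list of G1/S genes, again 20% of all cells, were called S-high. Of the cells then left, those with the lowest sum of both shares, 40% of all cells, were called low. The 10 genes are in neither list, and UMIs were summed per library and class and compared within libraries. These classes are ranges of a score: 5.56% to 17.9% of a library's cells lay near any single edge, of which each library had 3. Median G2/M-list shares were 1.41% to 1.75% of UMIs in G2/M-high, 0.528% to 0.612% in S-high and 0.171% to 0.418% in low cells. Median G1/S-list shares were 0.466% to 0.598% in S-high, 0.243% to 0.290% in G2/M-high and 0.0643% to 0.269% in low cells. In GL261-GSCs replicate 2 that share was 0.269% in low cells, near the 0.290% of its G2/M-high cells. Median UMIs differed too, from 6767 to 14356 in low cells and from 8050.5 to 17223 in G2/M-high cells, and the part of depth in the differences was not tested beyond repeats in cells of at least 5000 UMIs and with scores from thinned cells. Cdkn1c had class sums of 0 and was left out.

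Cdkn2c and Cdkn1b were the 2 genes of the 9 that were called higher in G2/M-high than in low cells, and 4 were called lower: Ccnd2, Ccnd3, Cdkn2a and Cdkn2b. For Ccnd3 the log2 ratio of G2/M-high to low cells was -0.06 and -0.0053 in GL261 against -0.23, -0.25, -0.50 and -0.57 in GL261-GSCs replicates 1 to 4, and the difference of -0.35 between the groups did not pass (SE 0.11, edgeR adjusted p = 0.155). Beside this, 48.7% of the 15701 genes tested were called, 20.5% as higher and 28.2% as lower. In the fit over all 6 libraries the INK4 genes thus differed from each other, with Cdkn2c higher and Cdkn2a and Cdkn2b lower. For Cdkn2a that log2 ratio was -0.11 and 0.010 in GL261 replicates 1 and 2. In GL261-GSCs replicates 1 to 4 it was -0.26, -0.28, -0.32 and -0.15, and the difference between the groups did not pass in edgeR.

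Cdkn2c had the steepest profile. In low cells it was at 2.59 and 5.58 CPM in GL261 against 7.05, 8.84, 7.82 and 8.42 CPM in GL261-GSCs replicates 1 to 4. In S-high cells it was at 10.9 and 12.5 CPM in GL261 against 17.3, 16.1, 14.5 and 13.7 CPM in GL261-GSCs. In G2/M-high cells it reached 35.1 and 41.9 CPM in GL261 against 31.4, 34.6, 44.1 and 40.9 CPM in GL261-GSCs. The order low, S-high, G2/M-high held in each of the 6 libraries, with no overlap between classes. The log2 difference was 2.54 for G2/M-high against low (SE 0.16, edgeR adjusted p = 2.32e-09) and 1.11 for S-high against low (SE 0.17, edgeR adjusted p = 0.000103). Its E2F letters are those printed above.

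Cdkn1b fell in S-high and rose in G2/M-high cells. From low to S-high to G2/M-high cells its mean over the 6 libraries went from 51.8 ± 9.97 to 42.9 ± 6.63 to 76.7 ± 14.0 CPM (SD, n = 6). Every library was higher in G2/M-high than in low cells, by 0.33 to 0.81 on the log2 scale (fitted 0.57, SE 0.08, edgeR adjusted p = 1.39e-05). S-high cells were lower than low cells in 6 of 6 libraries (-0.26, SE 0.08, edgeR adjusted p = 0.0159). That last call was lost without GL261 replicate 1 or 2 (edgeR adjusted p 0.106 and 0.0593).

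**Figure D4:**
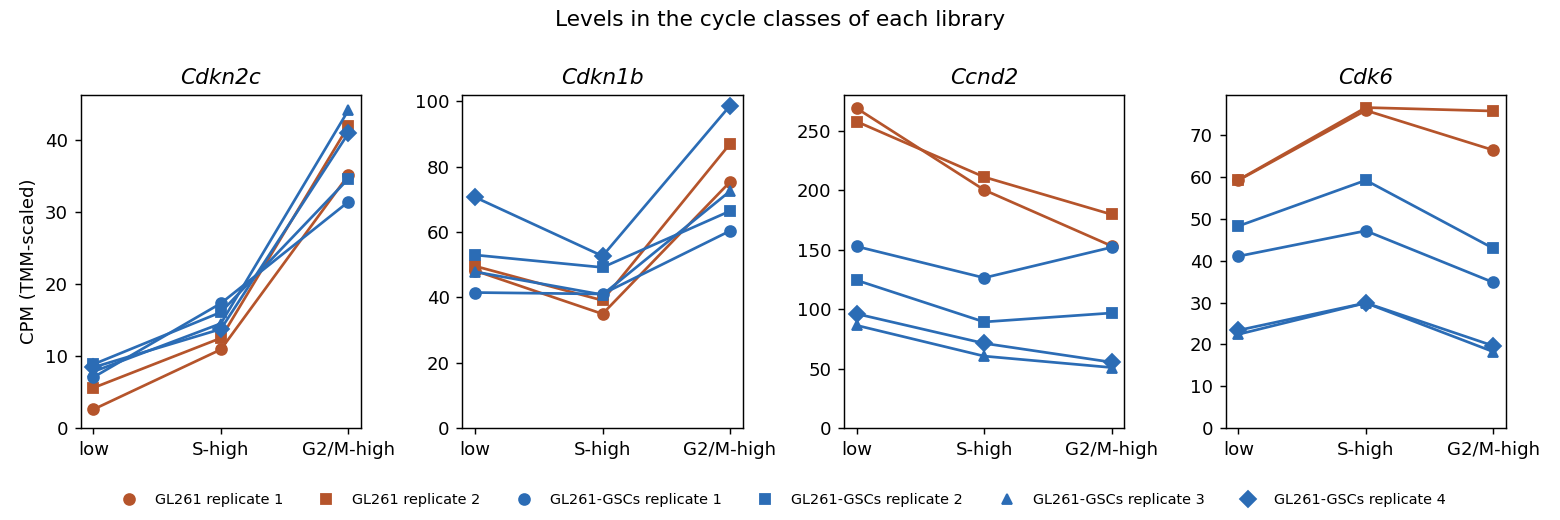
Level in CPM of Cdkn2c, Cdkn1b, Ccnd2 and Cdk6 in low, S-high and G2/M-high cells, with 1 line per library (GL261 orange, GL261-GSCs blue). Cdkn2c climbs from at most 8.84 CPM in low cells to at least 31.4 CPM in G2/M-high cells, and Cdkn1b dips in S-high cells.

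S-high cells had lower Ccnd1, Ccnd2, Cdkn2a, Cdkn2b and Cdkn1b and higher Cdk4, Cdk6 and Cdkn2c than low cells. Those are 5 of 9 called lower and 3 of 9 called higher, where 21.0% of all genes tested were lower and 15.8% higher (36.8% in all). With library size scaling that balance over all genes turned, with 2650 lower and 3026 higher in place of 3296 and 2478. Cdkn2b changed most among the falls, with -0.79 (SE 0.08, edgeR adjusted p = 1.75e-06). It went from 31.1 ± 6.08 CPM in low to 18.2 ± 4.601 CPM in S-high cells (SD, n = 6) and was lower in 6 of 6 libraries. Ccnd2 fell by 0.40 on the log2 scale in S-high and by 0.53 in G2/M-high cells (SE 0.09 for both, edgeR adjusted p = 0.00156 and 9.11e-05). The log2 ratio of G2/M-high to low cells was only -0.0068 in GL261-GSCs replicate 1, against -0.36 to -0.81 in the other libraries. Ccnd1 fell by 0.22 in S-high cells (SE 0.05, edgeR adjusted p = 0.00240), and its difference of -0.09 in G2/M-high cells did not pass (edgeR adjusted p = 0.163). Cdk6 rose by 0.33 in S-high cells (SE 0.08, edgeR adjusted p = 0.00356), in 6 of 6 libraries. Cdk4 rose by 0.13 (SE 0.04, edgeR adjusted p = 0.0270), in 5 of 6 libraries, and lost the call without GL261-GSCs replicate 2 or 4 (edgeR adjusted p 0.0609 and 0.0723) and with classes of 10% (0.473).

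Class differences were then compared between the groups with an interaction term. For G2/M-high against low cells, 1 of 9 genes passed, Cdk6, where 1.36% of all genes did (0.306% with a positive and 1.06% with a negative difference, or 48 and 166 genes). That split turned with the setting, to 68 positive and 70 negative with library size scaling, 84 and 61 in cells of at least 5000 UMIs and 118 and 79 with scores from thinned cells. In the main fit 6 of the 9 genes had an unadjusted edgeR p under 0.05. The share of all genes at that unadjusted cutoff is not given here, so the count cannot be set against a background. Without GL261-GSCs replicate 4, edgeR called 3 of the 9, each negative, where 97 of 15444 genes were called positive and 345 negative. Cdk6 in low cells was at 59.2 and 59.3 CPM in GL261 and rose to 66.4 and 75.8 CPM in G2/M-high cells. In GL261-GSCs replicates 1 to 4 it went from 41.1, 48.3, 22.4 and 23.4 CPM down to 34.8, 42.9, 18.2 and 19.6 CPM. Both GL261 libraries therefore went up and all 4 GL261-GSCs libraries down, and the difference of log2 changes was -0.49 (SE 0.10, edgeR adjusted p = 0.0262). Leaving out GL261 replicate 1 or 2 or GL261-GSCs replicate 2 or 3 ended the call (edgeR adjusted p 0.371, 0.619, 0.0507 and 0.185), and without GL261 replicate 2 the difference was -0.26. With all 6 libraries the call was also lost in cells of at least 5000 UMIs (-0.35, edgeR adjusted p 0.0930), with scores from thinned cells (-0.38, 0.0817) and with library size scaling (-0.40, 0.0636). Cdkn2c rose less in GL261-GSCs than in GL261, by a difference of -1.04 that did not pass (SE 0.25, edgeR adjusted p = 0.0539); it passed with classes of 10% (-1.19, 0.0215) and without GL261-GSCs replicate 4 (-1.06, 0.0308), and was -0.58 without GL261 replicate 1 (0.644) and -1.39 without GL261 replicate 2 (0.202). The Cdkn2b difference of -0.43 (edgeR adjusted p 0.0744) was -0.46 without GL261-GSCs replicate 4 (0.0493) and -0.22 without GL261 replicate 2 (0.724). For S-high against low cells no gene of the 9 passed by edgeR or limma-voom, where 0.172% of all genes did by edgeR. Of the 9, 3 had an unadjusted edgeR p under 0.05, again without a share of all genes at that cutoff.

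**Figure D5:**
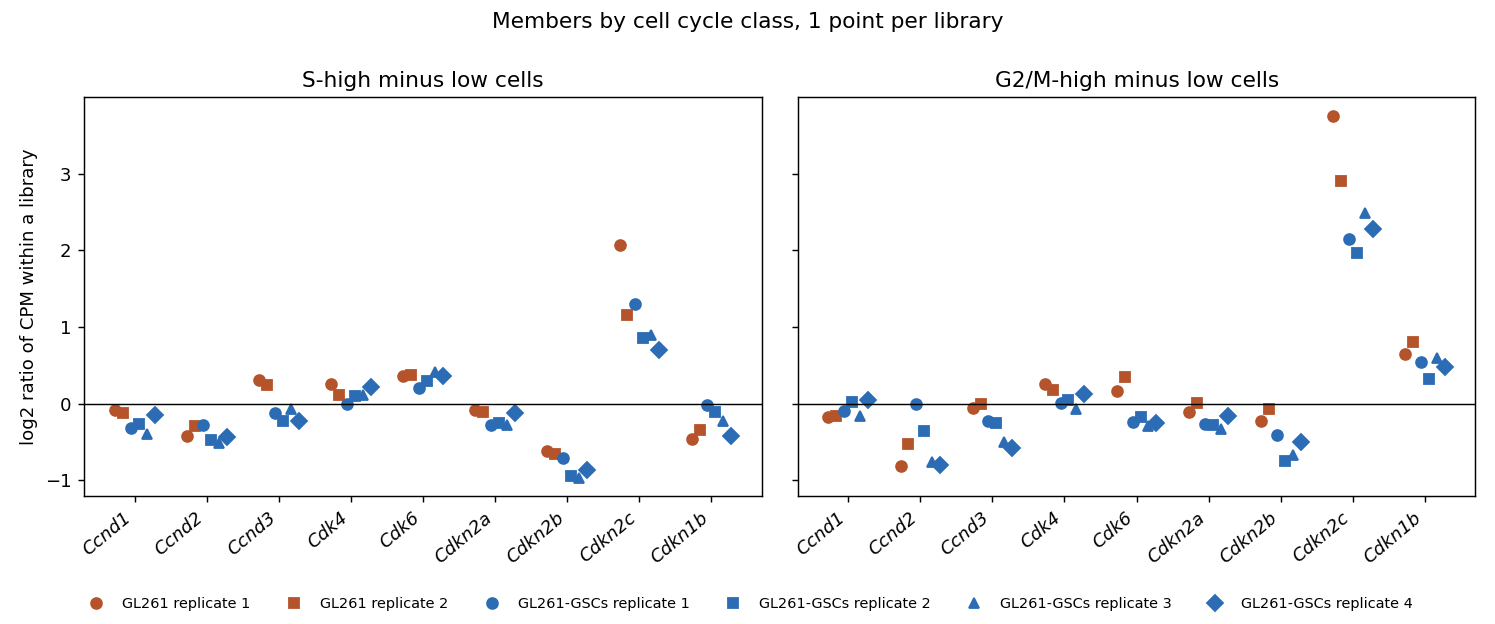
Log2 ratio of CPM in S-high (left) and G2/M-high (right) over low cells, 1 point per library, for the 9 genes with at least 10 UMIs in every class. Cdkn2c lies between 1.97 and 3.76 in G2/M-high cells, and Cdk6 is above 0 there in GL261 and below 0 in GL261-GSCs.

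The difference between the groups was also computed within each class, a comparison chosen after seeing the data. Ccnd3 was called higher in GL261-GSCs in each class, with log2 changes of 1.16 in low, 0.79 in S-high and 0.91 in G2/M-high cells. Ccnd2 in G2/M-high cells differed by -0.88 and lost the call (edgeR adjusted p 0.158). Cdk6 in G2/M-high cells was called lower (-1.27, edgeR adjusted p 0.0309), and Ccnd1 was called higher there (0.79, edgeR adjusted p 0.0384). Cdkn2c differed by 0.92 in low and 0.41 in S-high cells without passing (edgeR adjusted p 0.0865 and 0.101), and by -0.0059 in G2/M-high cells.

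Other genes of the pathway were read from lists by role, beside a median log2 change of 0.04 over all genes tested, of which 15.8% were called higher and 14.1% lower. At an unadjusted edgeR p under 0.05, 7845 of the 18439 genes tested passed, counting both directions. Of 18 genes of the pocket proteins, E2F factors and the DREAM repressor complex, edgeR called 2 lower (edgeR median -0.25), as did limma-voom. DESeq2 called 3 lower, where it called 16.7% of all genes tested lower. None of these tests called any of the 18 higher, and none of the rises had an unadjusted edgeR p under 0.05. E2f1, the activator released from the retinoblastoma protein, fell from 54.5 ± 3.34 (SD, n = 2) to 35.1 ± 4.25 CPM (SD, n = 4), by 0.64 on the log2 scale (SE 0.15, edgeR adjusted p = 0.0183). Lin37, a subunit of DREAM, fell by 0.43 (SE 0.12, edgeR adjusted p = 0.0319). With library size scaling in edgeR, 0 of the 18 were called. Without GL261-GSCs replicates 1 and 2, 7 were called lower and 2 higher, where 26.2% and 28.7% of all genes tested were.

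Downstream of E2F, none of the 6 cyclin E and A genes, their kinases and Cdc25a was called by edgeR or limma-voom (median -0.35). Of those 6, 2 had an unadjusted edgeR p under 0.05, where 7845 of all 18439 genes tested did. DESeq2 called 2 lower, where it called 16.7% of all genes tested lower (36.7% in all). Without replicates 1 and 2 of GL261-GSCs edgeR called 5 lower, where that fit called 26.2% of all genes lower. Among 22 E2F targets edgeR called 3 lower (median -0.20) and 0 higher, while 1 was higher with an unadjusted edgeR p under 0.05, 1 by DESeq2 and 0 by limma-voom. Rrm2, a ribonucleotide reductase subunit, fell by 1.16 on the log2 scale (SE 0.23, edgeR adjusted p = 0.0106), Mybl2, a mitotic gene activator, by 0.91 (SE 0.19, edgeR adjusted p = 0.0127), and E2f1 as above. That count depended on the libraries. Without replicates 1 and 2 of GL261-GSCs, 9 targets were lower and 1 higher (26.2% and 28.7% of all genes tested), and without replicates 3 and 4, 3 were lower and 5 higher (18.9% and 20.9%). None of the 2 further inhibitors, Cdkn1a and Cdkn2d, and the 4 genes of the CDK-activating kinase and the chaperone Cdc37 was called by edgeR, DESeq2 or limma-voom. Only Ccnh, which encodes the cyclin of the activating kinase, had an unadjusted edgeR p under 0.05. Of the lists that set the cycle classes, 1 of 43 G1/S genes was higher and 1 lower, and 2 of 54 G2/M genes were higher and 5 lower. These counts also depended on the libraries. Without GL261-GSCs replicates 1 and 2, edgeR called 3 G1/S genes higher and 13 lower, and 6 G2/M genes higher and 16 lower. Without replicates 3 and 4 it called 9 G1/S genes higher and 3 lower, and 6 G2/M genes higher and 7 lower. The shares of all genes in those fits are given above.

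The next lists act on the stability of these proteins or on their transcription. Of 13 turnover genes, 2 rose (median 0.17). Called lower were 0 by edgeR and limma-voom and 1 by DESeq2. With an unadjusted edgeR p under 0.05, 3 were lower and 3 higher. Over all 18439 genes tested, 7845 passed that unadjusted cutoff, counting both directions. Fbxo31, a ubiquitin ligase subunit known to target cyclin D1, rose by 0.62 (SE 0.12, edgeR adjusted p = 0.00968). Gsk3b, a kinase that marks cyclin D1 for export and degradation, also rose by 0.62 (SE 0.16, edgeR adjusted p = 0.0288). Of 15 Polycomb genes, whose products silence the Cdkn2a locus, 1 rose and 2 fell (median 0.07), so that 3 of 15 were called where 29.9% of all genes were. Jarid2, a subunit of the PRC2 complex, rose by 1.48 (SE 0.21, edgeR adjusted p = 0.00322). Phc2, a subunit of the PRC1 complex, fell by 1.27 (SE 0.14, edgeR adjusted p = 0.00109).

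Of 17 tested transcription factors known to act on these genes, 3 rose and 7 fell (median -0.10), where 15.8% and 14.1% of all genes tested did. Myc, which binds E-boxes, rose from 162 ± 20.7 (SD, n = 2) to 474 ± 29.8 CPM (SD, n = 4), with a change of 1.55 (SE 0.15, edgeR adjusted p = 0.000627). Foxo3, a factor known to activate Cdkn1b, rose by 1.003 (SE 0.21, edgeR adjusted p = 0.0141), and Dmtf1, known to activate Arf, by 0.62 (SE 0.12, edgeR adjusted p = 0.0104). The falls with the smallest p were Id1, Tbx2 and Fosl1. Id1, an inhibitor of helix-loop-helix factors that represses p16INK4a, fell from 307 ± 9.04 (SD, n = 2) to 16.3 ± 5.39 CPM (SD, n = 4), with a change of -4.24 (SE 0.28, edgeR adjusted p = 0.000175). Tbx2, a repressor of the Cdkn2a locus, changed by -4.44 (SE 0.49, edgeR adjusted p = 0.00109), and Fosl1, an AP-1 subunit, by -3.82 (SE 0.53, edgeR adjusted p = 0.00281).

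For each D cyclin, the genes of at least 10 CPM with the most similar profile were listed by Pearson's r of log2 CPM over the 6 libraries among 9024 genes. For Ccnd1 they were Gna12, Cdk14 and Anapc5 (r of 0.998, 0.996 and 0.991). Ccnd2 was closest to Mllt11, Bahd1 and Camkk2 (0.997, 0.996 and 0.995). Ccnd3 was closest to Med13l, Mlxip and Fip1l1 (0.998, 0.995 and 0.995). With so many genes and 6 libraries that share depth and group, such values are a description only.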

How the data were processed

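The authors deposited unfiltered matrices of raw UMI counts for every barcode, which Cell Ranger 4 wrote, per the file headers. The build is mm10 per the submitters' processing notes. The sources used here do not give the annotation release. Groups and replicate numbers came from the sample titles. The members and gene lists were chosen with earlier results of these data known.

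A barcode was a cell if it reached 10% of the UMI total at percentile 99 of the top 3000 barcodes, with at least 500 genes and under 10% mitochondrial UMIs; no doublets were removed. Counts were summed per library, since cells are not replicates, and tested over all genes with edgeR 4.0.16 in R 4.3.3 (glmQLFit, glmQLFTest, TMM, filterByExpr, Benjamini-Hochberg, 2-sided). An SE is the absolute log2 change divided by the square root of F. The common dispersion was 0.0969. Class sums were fitted with library as block. Shares used cells thinned to 2000 UMIs, exact permutation tests, and free RNA from barcodes of 100 to under 1000 UMIs. Cells counted as near a class edge had scores within 10% of the edge.

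Alternatives covered scaling, count filter, DESeq2 1.42.0, limma-voom (limma 3.58.1), a replicate block, cell filters, depth, class size and left-out libraries. The tests were also run on simulated data, and the outcome is not given or used here. Coordinates are from GENCODE M21 (GRCm38), matched by identifier. The named genes were all 10 members, the 3 called genes of smallest p in each direction of a list, genes within 1000000 bases of Cdkn2a and Cdkn2b, and the 3 profiles closest to each D cyclin; Cdkn1a, Cdkn2d and Ccnh were named after their values were seen. Pairs of libraries shared 32 to 59 cell barcodes, against 26.1 to 57.9 by chance. The values of 1 gene on the gene lists are not reported here.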

Additional observations from a re-analysis of the deposited data

Results flagged for a closer look

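Cdk6 differed between the groups in its change from low to G2/M-high cells: the difference of log2 changes was -0.49 (edgeR adjusted p = 0.0262 for the interaction), with both GL261 libraries up and all 4 GL261-GSCs libraries down. The call was lost when any of 4 libraries was left out singly, in cells of at least 5000 UMIs, with scores from thinned cells and with library size scaling, as given above.

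Ccnd3 went up from low to S-high cells in both GL261 libraries, from 133 to 166 CPM in replicate 1 and from 133 to 158 CPM in replicate 2. It went down in all 4 GL261-GSCs libraries, by 0.07 to 0.23 on the log2 scale. The difference of -0.44 did not pass the interaction test (edgeR adjusted p = 0.199). Among 38 groups of 4 values checked for a library far from the others, none was found.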

How the results depend on the processing

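The group difference of Ccnd3 and Ccnd2 kept its direction under every alternative run, and that of Ccnd1 and Cdk6 likewise. The replicate numbers are only names in the labels, and same-numbered libraries did not deviate together (correlations -0.01 and 0.08). With the number as a replicate block, edgeR called 6512 genes, and called Ccnd1 (0.86), Cdk6 (-0.59) and Cdkn2a (0.49). Numbers 3 and 4 occur only in GL261-GSCs, so in that fit these libraries add nothing to the group difference. It is thus close to the fit without GL261-GSCs replicates 3 and 4 (0.88, -0.58 and 0.50) and is not a separate check. Other scalings, tests and filters called 5413 to 6760 genes. Leaving out 1 library gave 1817 to 6193 genes, the lowest counts without GL261 replicate 1 (1972) or 2 (1817), where the lone GL261 library is assumed to vary like the others. Without GL261-GSCs replicates 1 and 2, 9881 were called.

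Ccnd1 was called with library size scaling (0.76), without GL261-GSCs replicates 3 and 4 (0.88) and in G2/M-high cells (0.79). It was not called without GL261-GSCs replicates 1 and 2, where it was at 0.33. Cdk6 was called by DESeq2 (-0.99), without the count filter (-0.99), without replicates 1 and 2 (-1.53), without replicates 3 and 4 (-0.58) and in G2/M-high cells (-1.27). In G2/M-high cells Ccnd2 (-0.88) was not called. Leave-one-out values ran from -1.35 to -0.97 for Ccnd2, 0.91 to 1.06 for Ccnd3 and -1.20 to -0.83 for Cdk6. Without replicates 1 and 2, Cdk4 (-0.48) and Cdkn1c (-1.49) were called and Cdkn2a was at -0.037; without 3 and 4, Cdkn2a was called (0.50).

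Uncalled differences near 0 changed sign. Cdkn2b was at 0.12 with library size scaling, 0.17 with the block, 0.013 in cells of at least 5000 UMIs, 0.017 over all barcodes, 0.21 without replicates 3 and 4, 0.050 in low cells and -0.22 to 0.10 with 1 library left out. Cdkn2c was at -0.0059 in G2/M-high cells and -0.024 to 0.38 with 1 library left out, but at 0.92 in low and 0.41 in S-high cells. Cdkn1b was at -0.076 with the block, -0.065 without replicates 3 and 4, -0.10 in G2/M-high cells and -0.052 to 0.14 with 1 library left out.

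Shares depend on depth. Without thinning, the GL261-GSCs minus GL261 differences in percentage points were 1.61 for Ccnd1, -27.0 for Ccnd2, 7.28 for Ccnd3, -22.2 for Cdk6, -3.07 for Cdkn2a, -3.52 for Cdkn2b, -2.77 for Cdkn1b and -0.725 for Cdkn1c. At 1000 UMIs they were 18.4 for Ccnd1, -7.86 for Ccnd2, 10.7 for Ccnd3 and -2.19 for Cdk6.

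For cycle classes, Cdk4 was called in G2/M-high cells with thinned scores (0.10); with 1 library left out it ranged over 0.081 to 0.12 and was called only without GL261-GSCs replicate 3 (edgeR adjusted p 0.0285). In S-high cells Cdk4 lost its call with 10% classes (0.057) and ranged over 0.11 to 0.16 with 1 left out, Cdkn1b over -0.31 to -0.18 and Ccnd3 over -0.046 to 0.022. Ccnd3 there was at 0.023 with library size scaling. The Cdk6 interaction lost its call in cells of at least 5000 UMIs (-0.35), with thinned scores (-0.38) and with library size scaling (-0.40), and ranged over -0.52 to -0.26 with 1 left out. That of Cdkn2c was called with 10% classes (-1.19) and ranged over -1.39 to -0.58. Where no cause is named, the cause was not tested.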
